A study of Rattus norvegicus with 6 samples.

Results

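The rows examined here are those of 10 rat genes that encode insulin, its granule companions and the enzymes that process it, which were found by symbol among the 32883 genes listed for 6 small RNA libraries. They are Ins1, Ins2 and Iapp (hormones), Chga, Chgb, Scg2 and Scg5 (granins and a granin-like chaperone), and Pcsk1, Pcsk2 and Cpe (processing enzymes). Each symbol matched 1 row, and the 10 rows held 2174 reads over the 6 libraries. A test was made for 9 of the 10 genes, those whose mean over the libraries was at least 5 normalized reads, and Scg2 (mean 3.41) was too low for one.

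The libraries came from 6 clonal lines of INS-1(832/13)::mCherry, a rat insulinoma line that secretes insulin and here carries a human INS-neoR transgene and a mouse Ins2-C-mCherry transgene. The 3 control lines (5-9, 2 and 16) lack the Prader-Willi syndrome (PWS) imprinted domain on the silent maternal allele, and the 3 PWS lines (3, 19-1 and 19-4) lack it on both alleles, so the maternal deletion is shared by all 6. Lines 2 and 16 and all PWS lines were derived from line 5-9, lines 19-1 and 19-4 are subclones of a shared line 19, line 3 has a larger deletion at its proximal end, and the human transgene is described as silenced in control line 16. All lines were grown in 7.5 mM glucose, and each gave 1 library, so that the spread within a group holds differences between clones, library preparation and counting error together, and the p-values measure that spread.

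Insulin is made as a precursor that enters the endoplasmic reticulum (ER), folds there with the help of chaperones, and is packed into dense-core granules at the trans-Golgi. Granins help these granules to form, and within them the convertases PC1/3 and PC2 and the carboxypeptidase CPE cut and trim prohormones to their active forms. Rodents have a pair of insulin genes, Ins1 and Ins2, and the β-cell devotes a large part of its mRNA and protein synthesis to insulin.

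A small RNA library reads an mRNA only through short fragments that pass a size selection, here widened by the authors to keep snoRNAs. The values are therefore called mRNA fragments below, and a difference in them can come from the amount of an mRNA or from how it was cut and kept, which cannot be told apart in these libraries. Values are normalized reads, that is, reads divided by a size factor for each library. Transcript lengths were not used here, so levels were compared between lines and not between genes. In bulk samples such as these, fewer cells of a type and less RNA per cell cannot be told apart.

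The libraries held 7373691 to 16480475 reads. Their Snord116 total, which checks the deletion, was 5557 to 8804 normalized reads in control lines and 1.78 to 3.96 in PWS lines. All 55 genes called across the table were lower in the PWS lines, at an adjusted p under 0.1 in limma-trend with Benjamini-Hochberg adjustment, which is 1.28% of the 4292 genes tested. Protein-coding genes took 0.937% ± 0.0647 (SD, n = 3) of the reads in control lines and 1.01% ± 0.0309 (SD, n = 3) in PWS lines (exact two-sided permutation p = 0.2, Benjamini-Hochberg adjusted p = 0.3 over 2 shares). With 3 lines against 3 this exact test cannot go below p = 0.1, so it could not have passed the threshold used here. A further 174 protein-coding genes lost reads when reads shared with an overlapping gene were left out, and they held 43.3% of the protein-coding reads. The remaining protein-coding genes are taken as the mRNA fragments, and they took 0.521% ± 0.0455 (SD, n = 3) of reads in control and 0.592% ± 0.0708 (SD, n = 3) in PWS lines (exact permutation p = 0.3, adjusted p = 0.3). Each of the 10 genes had the same reads with and without shared reads.

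The lines were checked against β-cell markers and against markers of the other cells of the pancreas. Of 16 β-cell genes with a row, 15 had at least 1 read, among them Pdx1 (80 reads over the 6 libraries), Neurod1 (87), Nkx6-1 (55) and Slc2a2 (103), while Mafa had 4 and Ucn3 had 0. Of 24 marker genes of other islet and pancreas cells with a row, 21 were at 0 in every library, including the hormone genes Gcg, Sst, Ppy and Ghrl. Krt7, a duct keratin, had 17 reads, and Ptprc, a leukocyte marker, had 1. The summed level of this list was 1.97 to 3.86 normalized reads in control and 0.594 to 8.40 in PWS lines, and none of its 26 genes reached the level for a test.

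The 10 genes together gave 331.9, 239.2 and 498.4 normalized reads in control lines 5-9, 2 and 16, and 361.7, 234.3 and 232.03 in PWS lines 3, 19-1 and 19-4. The groups overlapped, with the highest total in control line 16 and the lowest in PWS line 19-4. The 3 deepest libraries (lines 3, 16 and 5-9, 11823702 to 16480475 reads) had the 3 highest totals and the 3 highest Ins1 values after scaling, and the other lines (7373691 to 10192806 reads) the lowest. The part of depth in these totals was not tested. These totals were 0.357% to 0.870% of the mRNA fragments of a library. Of the 2174 reads, Ins1 held 51.2%, Chga 12.0%, Iapp 10.4% and Pcsk2 9.25%, and the other six held 0.966% to 4.74% each, shares that are not corrected for transcript length. The groups held 1166 control and 1008 PWS reads. Divided by the summed size factors of each group, which is called the pooled ratio below, the PWS reads were 0.784 times the control reads (counting interval 0.719 to 0.853, 95%, exact), and without control line 16 this ratio was 1.02.

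**Figure D1:**
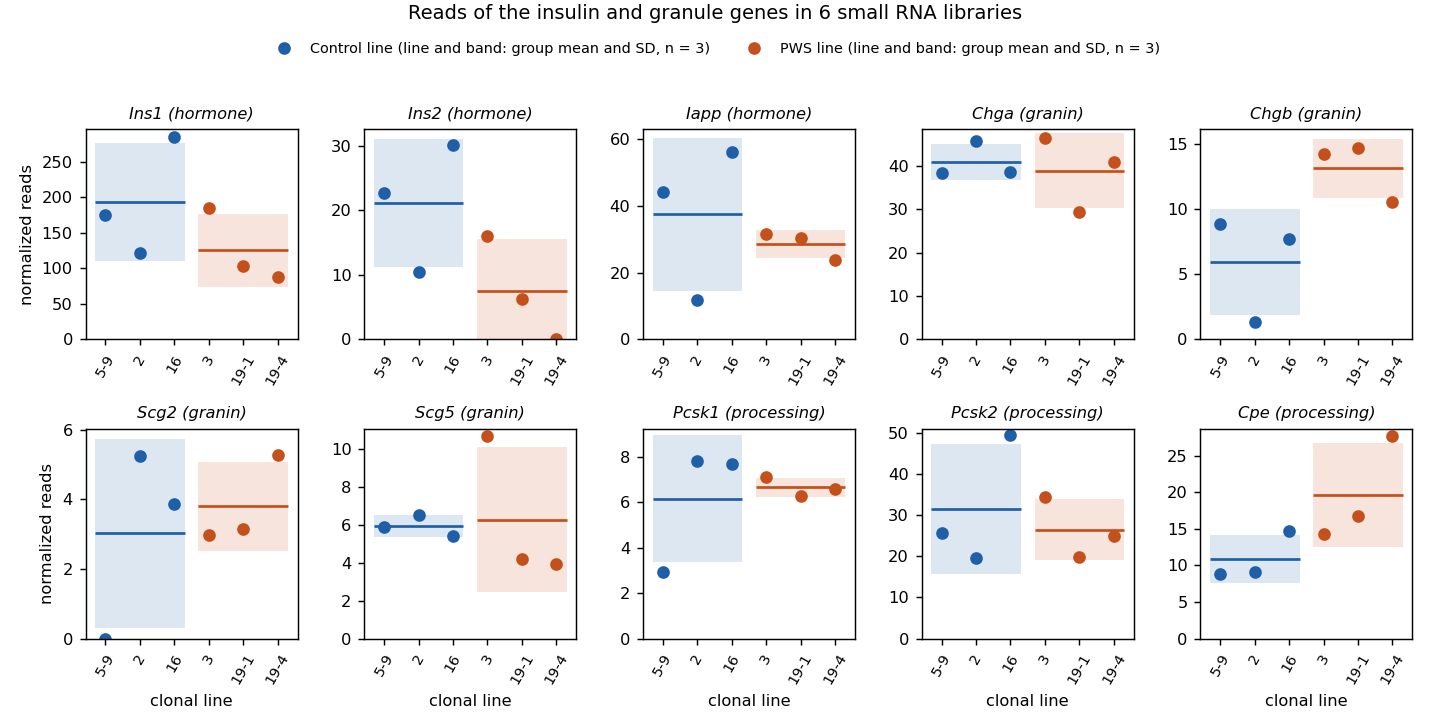
Normalized reads (y axis, each panel from 0 on its own scale) of the 10 genes in each clonal line (x axis), with control lines in blue and PWS lines in orange. Horizontal lines and bands are group means and SDs (n = 3). Chgb is the only panel in which every PWS line (10.5 to 14.7) lies above every control line (1.31 to 8.86).

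Which of these genes differed between PWS and control lines was asked gene by gene. The study used these lines to ask how loss of the PWS domain bears on the production and secretion of insulin. None of the 9 tested genes was called, against 0.0348% of the 2876 mRNA fragment genes tested (1 gene, Dusp4, a phosphatase of MAP kinases, named here after its values were seen). Dusp4 was at 12.8, 26.1 and 17.7 in control lines and 6.53, 1.05 and 3.96 in PWS lines (log2 fold change −2.17 ± 0.50 SE, limma adjusted p = 0.0431). At an unadjusted p under 0.05 there were 2 of the 9 genes, Ins2 (lower mean in PWS lines) and Chgb (higher). The share at that level was 5.96% of all genes tested and 4.52% of the mRNA fragments. With edgeR on the whole reads the same 2 genes were under an unadjusted p of 0.05, and with DESeq2 and limma-voom 0 were, and these tools called 0 of the 9.

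Of all 10 genes, 5 had a higher and 5 a lower mean in the PWS lines. The 95% interval of the difference included 0 for 7 of the 9 tested genes, a halving (−1) for 4 and a doubling (1) for 4. The median log2 fold change was 0.0048 over all genes tested and 0.089 over the mRNA fragments, whose median 95% interval reached 1.02 to either side.

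**Figure D2:**
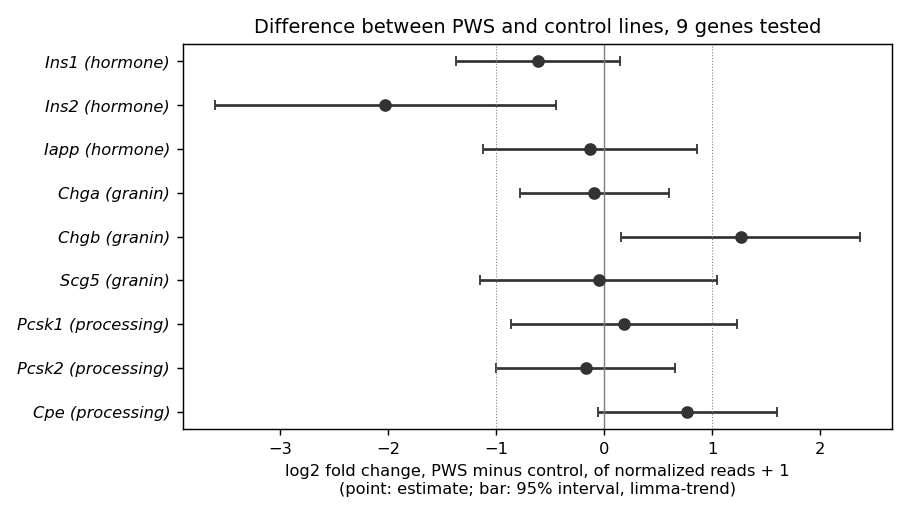
Log2 fold change, PWS minus control, of normalized reads + 1 (x axis) for the 9 tested genes (y axis). Points are limma-trend estimates and bars 95% intervals, with dotted lines at −1 and 1. The bars of Ins2 (−3.61 to −0.45) and Chgb (0.16 to 2.37) leave out 0, but neither gene passed the adjusted threshold.

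Ins1 encodes the rodent insulin that arose as a retroposed copy of Ins2. Its fragments were the most numerous of the 10, with 177, 93 and 369 reads in control lines 5-9, 2 and 16 and 310, 98 and 67 in PWS lines 3, 19-1 and 19-4. These were 174.3, 122 and 285 normalized reads in the control lines and 184.1, 103 and 88.3 in the PWS lines. The groups overlapped, since PWS line 3 lay above control lines 5-9 and 2, whereas both subclones of line 19 lay under every control line. Ins1 had a log2 fold change of −0.61 ± 0.36 SE (95% interval −1.37 to 0.15, limma adjusted p = 0.860). Without PWS line 3 it was −0.93, and without control line 16 it was −0.29, neither of which passed the threshold.

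Ins2 encodes the second rat insulin, the ortholog of the insulin gene of other mammals. Its fragments gave 23, 8 and 39 reads in control lines 5-9, 2 and 16 and 27, 6 and 0 in PWS lines 3, 19-1 and 19-4. In normalized reads the control lines were at 22.7, 10.5 and 30.1 and the PWS lines at 16.0, 6.30 and 0. The groups overlapped in that PWS line 3 exceeded control line 2, and the 0 of line 19-4 allows up to 3.96 normalized reads (3 reads). The log2 fold change was −2.03 ± 0.74 SE (95% interval −3.61 to −0.45, unadjusted p = 0.0150, limma adjusted p = 0.727).

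The estimate for Ins2 rested on the line with 0 reads. Without PWS line 19-4 the log2 fold change was −0.87, and with lines 19-1 and 19-4 averaged into 1 sample it was −1.27. Tests on whole reads gave −1.28 (edgeR), −1.45 (DESeq2) and −0.98 (limma-voom). The lines held 70 control and 33 PWS reads, a pooled ratio of control to PWS of 2.34 after division by the summed size factors (counting interval 1.53 to 3.66). Ins2 was called in 2 of the 21 alternatives, with no filter on low values (adjusted p = 0.0130) and without PWS line 3 (log2 fold change −2.91, adjusted p = 0.0547), and its adjusted p ranged from 0.0130 to 1.00 over all of them.

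Within each library, Ins2 took 11.5%, 7.92% and 9.56% of the insulin reads (Ins1 plus Ins2) in control lines 5-9, 2 and 16. It took 8.01% and 5.77% in PWS lines 3 and 19-1 and 0 of 67 reads in line 19-4, which allows a share of up to 4.48% (3 reads), or of 5.42% by the upper Wilson bound. The 95% Wilson intervals of control line 2 (4.07% to 14.9%) and PWS line 3 (5.56% to 11.4%) lay across most of this range. The Wilson bound of line 19-4 lay below the intervals of control lines 5-9 (7.79% to 16.7%) and 16 (7.07% to 12.8%). The Ins2 share overlapped between the groups through PWS line 3, and it was not tested.

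The promoters of Ins1 and Ins2 are shown because this pair of paralogs carries most of the reads of the 10 genes and its values were correlated across the lines. The 250 bases before the RefSeq start of each gene (assembly GRCr8, 5′ to 3′ along the gene) are given in lower case, with capitals for matches to GCCATCTG (the E-box of rodent insulin promoters, a binding sequence of NEUROD1 dimers), TTAATG (an A-box core of the kind bound by PDX1), CCAAT (the CCAAT box) and TATAAA (the TATA box). The motifs were chosen after the sequences were seen, and both strands were searched. The Ins1 promoter is chr1:261185869-261186118 on the plus strand and the Ins2 promoter chr1:207273806-207274055 on the minus strand.
Ins1 promoter: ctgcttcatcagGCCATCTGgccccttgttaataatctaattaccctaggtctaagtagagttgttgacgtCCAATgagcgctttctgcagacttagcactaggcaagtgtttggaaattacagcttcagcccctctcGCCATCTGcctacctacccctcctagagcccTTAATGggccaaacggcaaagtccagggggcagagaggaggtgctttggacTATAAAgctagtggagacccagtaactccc
Ins2 promoter: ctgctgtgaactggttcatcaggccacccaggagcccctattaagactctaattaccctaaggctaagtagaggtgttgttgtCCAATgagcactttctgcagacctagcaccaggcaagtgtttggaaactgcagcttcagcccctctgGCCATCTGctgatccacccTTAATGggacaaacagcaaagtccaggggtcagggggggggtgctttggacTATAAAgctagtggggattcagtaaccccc

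The alignment of the 2 promoters had 205 identical bases in 262 columns (78.2%), and over the 50 bases from the start, which open the transcripts, identity was 90%. TATAAA began 30 bases and TTAATG 81 bases before the start in both genes. GCCATCTG began 112 bases before the start in Ins1 and 100 in Ins2, and Ins1 held a further match at 238 bases. CCAAT began at 179 bases in Ins1 and at 167 in Ins2. Windows were found for 8 of the 10 genes (not for Chga or Pcsk1). Among these, GCCATCTG and TATAAA matched in Ins1 and Ins2, TTAATG in these and Iapp, and CCAAT in these 3 and Pcsk2. Over all 33469 promoter windows of the same length, GCCATCTG matched in 0.998%, TTAATG in 8.4%, CCAAT in 34.0% and TATAAA in 12.9%. A match describes the letters alone. How reads that fit both insulin genes, or the mouse Ins2 or human INS transgene, were placed was not tested.

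Iapp encodes islet amyloid polypeptide (amylin), a hormone stored and secreted with insulin. Its normalized reads were 44.3, 11.8 and 56.3 in control lines 5-9, 2 and 16 and 31.5, 30.5 and 23.7 in PWS lines 3, 19-1 and 19-4. All 3 PWS lines thus lay inside the range of the controls, whose spread was set by the low value of line 2 (9 reads). Iapp had a log2 fold change of −0.13 ± 0.47 SE (95% interval −1.12 to 0.86, limma adjusted p = 0.973). It was −0.80 without control line 2 (adjusted p = 0.818), 0.12 without control line 5-9 and 0.29 without control line 16, and edgeR and DESeq2 gave −0.38 and −0.39. The pooled ratio of PWS to control was 0.714 (counting interval 0.544 to 0.935).

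The 3 hormone genes summed to 241.3, 143.8 and 371 normalized reads in control lines and 231.6, 139.7 and 112 in PWS lines. Control line 16 held 2.58 times the normalized hormone reads of control line 2. The control mean was 1.56 times the PWS mean, a fold of means that is not like a fold of single lines. The means were 252 ± 114 in control and 161 ± 62.6 in PWS lines (SD, n = 3). The pooled ratio of PWS to control, from 608 and 836 reads and the summed size factors, was 0.659 (counting interval 0.593 to 0.733), and it lay between 0.469 (without PWS line 3) and 0.898 (without control line 16) when 1 line was left out. No test was made of this sum.

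Among the granins, Chga encodes chromogranin A, an acidic protein of dense-core granules and the precursor of several peptides. Its normalized reads were 38.4, 45.8 and 38.6 in control lines 5-9, 2 and 16 and 46.3, 29.4 and 40.9 in PWS lines 3, 19-1 and 19-4. The groups overlapped throughout, and the control SD of 4.19 was 0.643 times the SD that counting alone would give. For Chga the log2 fold change was −0.09 ± 0.33 SE, with a 95% interval (−0.78 to 0.60) that left out a halving and a doubling on this scale, and the limma adjusted p was 0.973.

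Chgb encodes chromogranin B, a second major granin of the granule core. It had 9, 1 and 10 reads in control lines 5-9, 2 and 16 and 24, 14 and 8 in PWS lines 3, 19-1 and 19-4, or 8.86, 1.31 and 7.72 against 14.3, 14.7 and 10.5 normalized reads. It was the only one of the 10 genes whose groups did not overlap, and 11.2% of all genes tested did not overlap in either direction (4.87% higher in every PWS line), so that 1 of 10 is near the background. For Chgb the log2 fold change was 1.27 ± 0.52 SE (95% interval 0.16 to 2.37, unadjusted p = 0.0273, limma adjusted p = 0.831). Without control line 2, in which a lone read was counted, it was 0.60.

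Scg5 encodes 7B2, a granin-like chaperone that PC2 needs to mature. Its normalized reads were 5.91, 6.54 and 5.40 in control lines and 10.7, 4.202 and 3.96 in PWS lines 3, 19-1 and 19-4. PWS line 3 was the highest of the 6 lines and both subclones of line 19 the lowest, so that the PWS values lay on either side of the controls. The log2 fold change was −0.05 ± 0.52 SE (95% interval −1.15 to 1.05, limma adjusted p = 0.988), and its sign turned in 7 of the 21 alternatives.

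Scg2 encodes secretogranin II, another granin and the precursor of secretoneurin. It had 0, 4 and 5 reads in control lines 5-9, 2 and 16 and 5, 3 and 4 in PWS lines, that is 0 to 5.23 and 2.97 to 5.27 normalized reads. These counts are near the limit of detection, and no fold change is given. The 4 granin genes together gave 53.2, 58.8 and 55.6 normalized reads in control lines and 74.2, 51.5 and 60.6 in PWS lines. Their control lines lay within 1.11 times of each other, in contrast to the 2.58 times of the hormone genes. In PWS lines the granins lay within 1.44 times, the hormone genes within 2.07 times and the processing enzymes within 1.38 times. The pooled granin ratio of PWS to control was 1.17 (counting interval 0.951 to 1.43), and it was 0.999 without PWS line 3.

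Of the processing enzymes, Pcsk1 encodes PC1/3, the convertase that makes the first cuts in proinsulin. Its normalized reads were 2.95, 7.84 and 7.72 in control lines 5-9, 2 and 16 and 7.13, 6.30 and 6.59 in PWS lines, from 3 to 12 reads each. The PWS lines were close together and lay under control lines 2 and 16. The log2 fold change was 0.19 ± 0.49 SE (95% interval −0.86 to 1.24, limma adjusted p = 0.961), and without control line 5-9 it was −0.20.

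Pcsk2 encodes PC2, the convertase that works with PC1/3 on proinsulin and on proIAPP. It gave 25.6, 19.6 and 49.4 normalized reads in control lines 5-9, 2 and 16 and 34.4, 19.96 and 25.0 in PWS lines 3, 19-1 and 19-4. The highest line of each group was also its highest in Ins1, namely control line 16 and PWS line 3. The log2 fold change was −0.17 ± 0.39 SE (95% interval −0.999 to 0.656, limma adjusted p = 0.956), and it was 0.20 without control line 16 and 0.01 without PWS line 19-1.

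Cpe encodes carboxypeptidase E, which removes the basic residues left by the convertases. It gave 8.86, 9.15 and 14.7 normalized reads in control lines 5-9, 2 and 16 and 14.3, 16.8 and 27.7 in PWS lines 3, 19-1 and 19-4. Only control line 16 and PWS line 3 crossed, and every other PWS line was above every control line. Cpe had a log2 fold change of 0.77 ± 0.39 SE (95% interval −0.06 to 1.60, unadjusted p = 0.0661, limma adjusted p = 0.835). It stayed above 0 in all 21 alternatives, from 0.50 to 0.99. The 3 enzymes summed to 37.4, 36.6 and 71.8 normalized reads in control and 55.8, 43.1 and 59.3 in PWS lines. Their pooled ratio was 1.03 (counting interval 0.824 to 1.28), and it was 1.43 without control line 16.

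The make-up of the reads by role was then read within each library, where the size factor has no part. Hormone genes took 72.7%, 60.1% and 74.5% of the reads of the 10 genes in control lines 5-9, 2 and 16 and 64.0%, 59.6% and 48.3% in PWS lines 3, 19-1 and 19-4. The hormone share was lowest in line 19-4 (95% Wilson interval 41.0% to 55.6%) and highest in control line 16 (71.0% to 77.7%), and the groups overlapped through control line 2. Processing enzymes took 11.3%, 15.3% and 14.4% in the control lines and 15.4%, 18.4% and 25.6% in the PWS lines, which did not overlap but were separated by less than the counting error (control line 2, 10.8% to 21.2%, and PWS line 3, 12.8% to 18.5%). Granins took 11.1% to 24.6% in control and 20.5% to 26.1% in PWS lines. As these are shares of a fixed total, a larger share of 1 role goes with a smaller share of another, and no test was made of them.

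**Figure D3:**
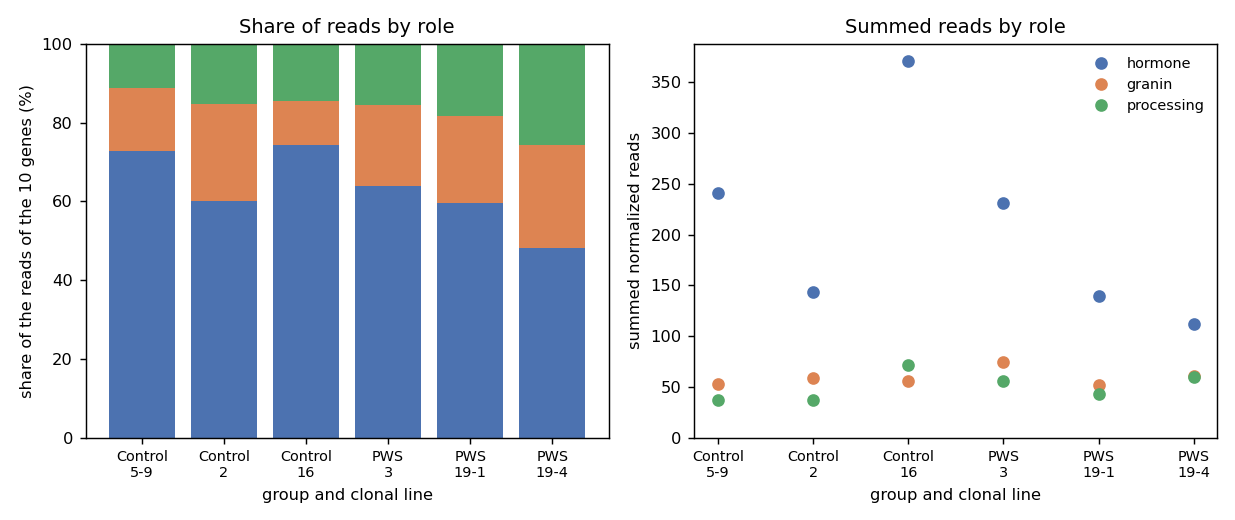
The left panel stacks the share of the reads of the 10 genes (y axis, percent) held by hormone (blue), granin (orange) and processing (green) genes in each line (x axis). The right panel plots the summed normalized reads of each role. The hormone share ran from 48.3% in PWS line 19-4 to 74.5% in control line 16, and the granin sum stayed between 51.5 and 74.2 in all 6 lines.

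The spread between lines of a group was set against the spread that counting alone would give. For Ins1 the SD between control lines was 83.25 normalized reads, 6.15 times the counting SD of 13.5, and between PWS lines it was 51.6, or 4.89 times. Ins2 (2.23 times in control and 3.48 times in PWS lines), Iapp (3.94 times in control) and Pcsk2 (2.89 times in control) also exceeded 2 times, which made 6 of the 20 gene-by-group SDs. For Chga, Scg2, Scg5, Pcsk1, Chgb and Cpe the SDs were 0.164 to 1.74 times the counting SD in either group. At the same relative spread this multiple is larger for a gene with more reads, so it does not rank genes by relative spread. In control lines the mean and SD were 193.5 and 83.25 for Ins1, 5.96 and 4.07 for Chgb, and 3.03 and 2.71 for Scg2. With 1 library per line, differences between clones, cultures and library preparations cannot be told apart in these SDs.

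**Figure D4:**
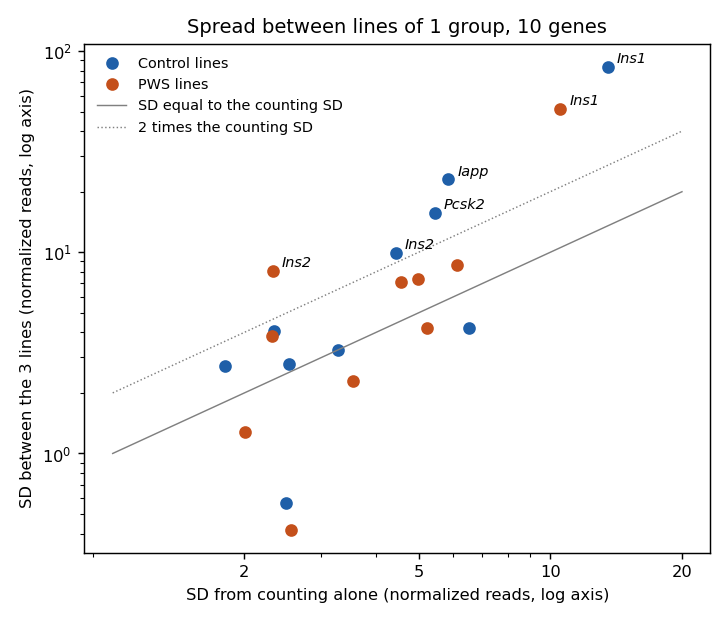
SD between the 3 lines of a group (y axis, log scale) against the SD from counting alone (x axis, log scale), both in normalized reads, for the 10 genes in control (blue) and PWS (orange) lines. The solid line marks equality and the dotted line 2 times the counting SD. The 6 named points, which are Ins1 and Ins2 in both groups and Iapp and Pcsk2 in control lines, lie above the dotted line.

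The pathway around these genes was described with lists of genes for the other granule proteins, ER folding, translocation, exocytosis and β-cell identity. Several of these lists, like the 10 genes themselves, hold genes that the study had picked out in total RNA of these lines, so their direction is not independent evidence. No gene of any list was called, by limma or in any of the 22 alternatives, edgeR and DESeq2 among them. At an unadjusted p under 0.05 there was 1 gene of 13 among the other granule proteins, 3 of 13 among the ER chaperones and 0 in the remaining lists, where 4.52% of the mRNA fragments and 5.96% of all genes tested were at that level. Of 23 genes for other granule cargo and membrane, 13 were tested, 5 with a positive and 8 with a negative log2 fold change and a median of −0.08. Ptprn2, a transmembrane protein of the granule also called phogrin, was at 3.94, 3.92 and 16.2 in control and 13.1, 26.3 and 14.5 in PWS lines (log2 fold change 1.28 ± 0.50 SE, limma adjusted p = 0.815). Igf2, a growth factor related to insulin, was at 31.5 ± 5.42 in control and 28.2 ± 1.79 in PWS lines (SD, n = 3), and Nucb2, the precursor of nesfatin, at 12.2 ± 3.24 and 11.6 ± 3.78.

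Of 16 ER chaperones and foldases, 13 were tested, and 11 had a negative and 2 a positive log2 fold change, with a median of −0.26 and a smallest limma adjusted p of 0.236. Hyou1, an ER chaperone of the HSP70 family, was at 17.7, 18.3 and 27.0 normalized reads in control lines and 11.3, 5.25 and 6.59 in PWS lines, which lay under every control line, as did 6.29% of all genes tested (log2 fold change −1.37 ± 0.40 SE, adjusted p = 0.236). Hsp90b1 (GRP94, a chaperone of proinsulin) was at 37.6 ± 6.30 in control and 21.9 ± 10.1 in PWS lines (SD, n = 3), and Creld2, a disulfide isomerase of the ER, at 8.99 ± 2.52 and 3.75 ± 0.532. Hspa5 (BiP, the main HSP70 of the ER) was at 107 ± 23.04 and 74.6 ± 19.7, and Calr (calreticulin) at 38.6 ± 13.1 and 37.5 ± 12.4. Summed over the list, the control lines gave 325.02, 326.8 and 371 and the PWS lines 291.6, 220.6 and 278.2 normalized reads, so that every PWS line lay below every control line. No test of the sum was made, and 6.29% of all single genes tested lay below in the same way. The 2 genes with a positive log2 fold change were Dnajb9 (16.1 ± 5.29 in control and 22.4 ± 9.59 in PWS lines) and Dnajb11 (4.54 ± 4.82 and 6.01 ± 3.90). The sums of the other 5 lists with tested genes overlapped between the groups, for example 128 to 155.6 in control and 153.4 to 159.8 in PWS lines for exocytosis and 501.3 to 562 and 423 to 562 for the common reference mRNAs.

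For translocation into the ER, 10 of 16 genes were tested, with a median log2 fold change of 0.17, and the most abundant were Sec61a1, the channel subunit, at 20.6 ± 4.55 in control and 21.9 ± 6.50 in PWS lines, and the signal peptidase subunits Spcs3 and Spcs1. Of 20 exocytosis genes 10 were tested, with a median of 0.21, led by Bsn and Pclo, scaffold proteins of release sites, and Cplx2, a regulator of SNARE fusion (15.4 ± 3.98 and 21.02 ± 3.17). For β-cell identity, 10 of 18 genes were tested, with a median of 0.05. Its most abundant genes were Kcnj11 and Abcc8, subunits of the ATP-sensitive potassium channel, and Isl1, an islet transcription factor. Of the 10, 5 had a positive and 5 a negative log2 fold change. Kcnj11 was at 28.7 ± 4.44 in control and 35.8 ± 5.82 in PWS lines. Neurod1 and the glucose transporter gene Slc2a2, named after their values were seen, were lower in every PWS line than in any control line. Of all genes tested, 6.29% were lower in this way and 11.2% did not overlap in either direction. Neurod1 was at 16.3 ± 1.73 and 10.3 ± 1.04 (log2 fold change −0.61 ± 0.36 SE, limma adjusted p = 0.860) and Slc2a2 at 17.6 ± 0.998 and 13.7 ± 3.85 (−0.38 ± 0.37 SE, adjusted p = 0.889). Of 22 common reference mRNAs 17 were tested, with a median of 0.10, and their most abundant were Eef2 (99.3 ± 26.2 and 111 ± 28.6), Tuba1b and Tuba1a. These medians stand beside 0.089 for the mRNA fragments and 0.0048 for all genes tested.

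**Figure D5:**
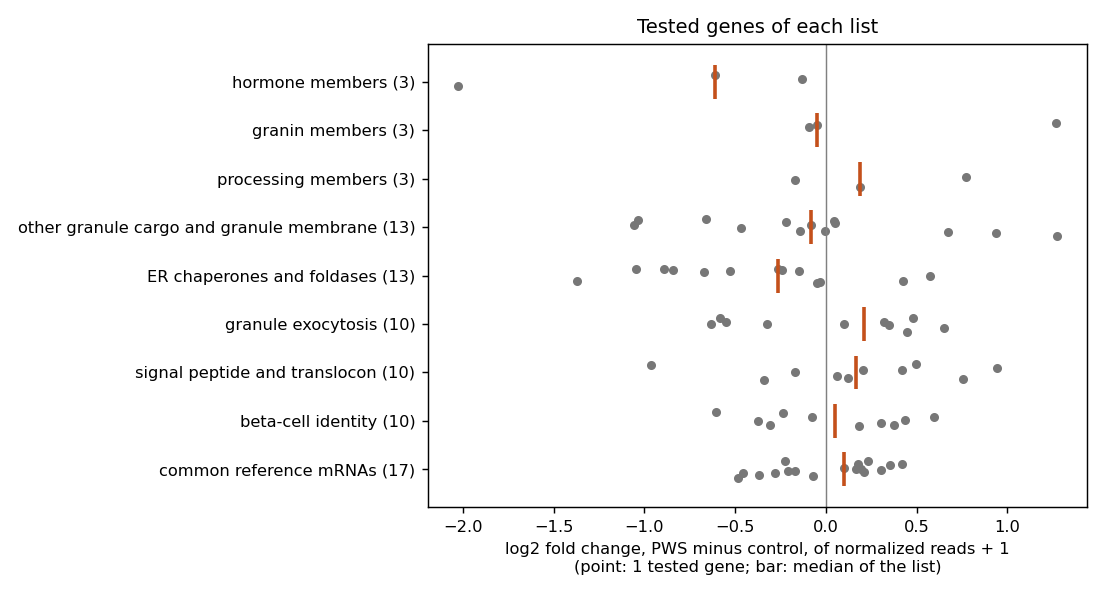
Log2 fold change, PWS minus control, of normalized reads + 1 (x axis) for each tested gene (point) of the hormone, granin and processing genes and of the 6 further lists with tested genes (y axis, number tested in parentheses). Orange bars are list medians, from −0.61 for the 3 hormone genes to 0.21 for exocytosis.

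The pattern of the 10-gene total across lines was compared, as a description, with that of every other gene averaging 20 or more normalized reads. The 5 genes most like it by Pearson correlation of log2 values over the 6 libraries had no biotype in the reference table. They were 2 rows named Metazoa_SRP, after the RNA of the signal recognition particle (r = 0.982 and 0.960), AY172581.1 (0.976), Gm25835 (0.967) and a row named U1 (0.953), after the spliceosomal RNA. Of the 1083 genes compared, 26 had an r above 0.9. Among the 10 genes, Ins1 correlated with Ins2 (r = 0.844) and with Pcsk2 (r = 0.852), Scg2 with Pcsk1 (r = 0.949, both at few reads), and the lowest value was for Ins2 with Cpe (r = −0.776). All of these rest on 6 libraries that share a depth and a size factor for all genes of a library.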

How the data were processed

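Small RNA libraries of 6 clonal lines were analysed. Per the methods and labels, the authors made them with a QIAseq miRNA kit from the total RNA used for RNA-seq, collapsed unique molecular identifiers with UMI-tools 1.0.0, trimmed with cutadapt 1.18, aligned to Rnor_6.0 with Bowtie2 2.3.4.2 and counted genes with HTSeq 0.11.2. The deposited signal is the gene count divided by a DESeq2 size factor per library, in 1 table that adds reads shared by overlapping genes to each gene (used here) and 1 that drops them. Dividing each column by its lowest value above 0 gave whole numbers throughout (100% within 0.001), taken as reads. The deposited columns of the authors' own comparisons (fold changes, p-values) were not used.

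limma 3.58.1 (limma-trend, R 4.3.3) was fitted to log2 of normalized reads with a pseudocount of 1, for genes with a mean of 5 or more, with genotype as the only term, Benjamini-Hochberg adjustment over all 4292 genes and a threshold of 0.1. The pseudocount pulls the fold changes of low genes towards 0, while a library at 0 reads can pull a mean of logs away from the pooled ratio. Pooled ratios divide the summed reads of each group by its summed size factors. Alternatives were other pseudocounts, filters and scalings, edgeR 4.0.16, DESeq2 1.42.0 and limma-voom on whole reads, the other table, a replicate block, lines 19-1 and 19-4 averaged, and each line left out. Tests were checked on simulated reads. Intervals of pooled ratios, Wilson intervals and limits of 3 reads cover counting error only. Promoters came from RefSeq (GRCr8) by symbol, which also gave the protein-coding class (17540 of 32883 symbols found).

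The genes and lists were chosen with earlier results of these data known. Named were the 10 genes, every called gene of a list, the 3 most abundant tested genes of each list and the 5 genes most correlated with the 10-gene total. Ptprn2 belonged to that rule. Hyou1, Creld2, Dnajb9, Dnajb11, Dusp4, Neurod1 and Slc2a2 were added after their values were seen, as were the markers named by their reads.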

Additional observations from a re-analysis of the deposited data

How the results depend on the processing

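The number of genes called over the table stayed between 41 and 66 under all 22 alternatives, and the number of the 10 genes called stayed at 0 except in 2, namely with no filter on low values (1, Ins2, log2 fold change −2.03, adjusted p = 0.0130) and without PWS line 3 (1, Ins2, −2.91, adjusted p = 0.0547). The cause was not tested. No list gained a called gene. Directions turned for genes with intervals across 0. For Scg5 the log2 fold change became 0.23 with edgeR, 0.17 with DESeq2, 0.33 with limma-voom and 0.15 with lines 19-1 and 19-4 averaged. With 1 line left out it ran from −0.45 to 0.17 for Scg5, −0.228 to 0.0914 for Chga, −0.80 to 0.29 for Iapp, −0.20 to 0.38 for Pcsk1 and −0.45 to 0.20 for Pcsk2. Ins1, Ins2, Chgb and Cpe kept their direction in every alternative, with left-out ranges of −0.93 to −0.29, −2.91 to −0.87, 0.60 to 1.65 and 0.50 to 0.99. With 1 line left out, the ratio of PWS to control was 0.999 to 1.26 for granins and 0.903 to 1.43 for processing enzymes, 0.469 to 0.898 for hormones and 0.615 to 1.02 for all 10 genes. Scaling by the median ratio of mRNA fragments, chosen after seeing the data, gave 0.753 for that last ratio. The residuals of same-numbered lines correlated at 0.414, 0.218 and −0.0574 over 1087 genes. Differently numbered lines were not compared in this way, so these values cannot decide whether the numbers pair the lines. A replicate block called 56 genes and 0 of the 10. No pair of libraries agreed within counting noise. Scg2, Scg5 and Pcsk1 had under 50 reads each over the 6 libraries.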
